A study of Homo sapiens with 2 samples.

Results

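The replication-dependent histone genes were described in PLC/PRF/5 cells, a human hepatoma line, under hypoxia. Members were all rows of the expression table with a single gene symbol of the form HIST1 to HIST4 followed by H1, H2A, H2B, H3 or H4, which gave 68 genes of 24991 single-symbol genes. By class, 6 were H1, 16 were H2A, 20 were H2B, 11 were H3 and 15 were H4 genes. By genomic cluster, 52 belonged to HIST1 on chromosome 6, 12 to HIST2 and 3 to HIST3 on chromosome 1, and 1 to HIST4 on chromosome 12. The study sequenced total RNA from 1 culture labelled EV, called the vector library here, and from 1 culture labelled NFX1_OE, in which the transcriptional regulator NFX1 was overexpressed. Both carried a construct and both were under hypoxia. The oxygen level, its duration, the promoter of the construct and whether the cells were a pool or 1 clone are not given in the sources used here. With 1 library per group no test between conditions is possible, so all differences below are between these 2 libraries.

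Replication-dependent histone genes supply the histones that package newly made DNA, and their mRNAs accumulate in S phase. H2A, H2B, H3 and H4 form the core of the nucleosome, and linker histone H1 binds the DNA where it enters and leaves. Most of these genes are short and without introns, and their mRNAs typically end in a conserved stem-loop instead of a poly(A) tail. Stem-loop binding protein (SLBP) and the U7 small nuclear ribonucleoprotein direct the cut just downstream of that stem-loop. In differentiated or slowly dividing cells, some of the same genes also give longer, polyadenylated transcripts. Whether the libraries were selected for poly(A) tails is not given in the sources used here, and that selection would set how much of each form was counted.

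The stem-loop is typical of such genes, and the choice by symbol did not use it. The pattern GGCNCTTNTNAGNGCC, searched on the transcript strand, was present in 45 of 99 GENCODE transcripts of the members (45.5%), which belonged to 30 of the 68 genes. Over all 206694 GENCODE transcripts it was present in 69 (0.0334%). The following sites are shown because their genes recur in the results, with the 16 stem and loop bases in capitals and 5 flanking bases on each side, written 5′ to 3′ as DNA.
HIST1H2AC: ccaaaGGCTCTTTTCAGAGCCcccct
HIST1H2BD: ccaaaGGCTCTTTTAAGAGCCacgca
HIST1H2BL: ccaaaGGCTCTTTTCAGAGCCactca
HIST2H2BE: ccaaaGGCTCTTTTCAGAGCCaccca
HIST3H2A: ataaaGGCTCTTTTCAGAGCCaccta
HIST1H3E: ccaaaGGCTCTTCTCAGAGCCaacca
HIST1H4H: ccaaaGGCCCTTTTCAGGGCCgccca
HIST1H4I: aaaaaGGCCCTTTTTAGGGCCcctaa
The stem arms were the same in most H2A, H2B and H3 genes, and the H4 genes used a different pair of complementary bases in the arms. All 8 H4 genes with a match had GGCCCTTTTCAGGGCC (5 genes) or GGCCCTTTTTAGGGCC (3 genes). The most frequent form elsewhere, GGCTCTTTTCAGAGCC, was in 5 H2A, 8 H2B and 1 H3 genes. No transcript of the H1 genes matched these letters, which says only that this exact pattern was not in those transcripts. In some genes the annotated transcript ran on past the stem-loop. It ended 40 bases after it in HIST1H2BL, 390 in HIST3H2A, 1114 in the shorter HIST1H2AC transcript and 1729 in HIST2H2BE. HIST1H4H had transcripts ending between 18 and 1655 bases after it, and HIST1H3E ended 5 or 1862 bases after it.

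The overexpressed gene checked the labels first: NFX1 was at 4.21 FPKM (fragments per unit of transcript length and of library size) in the vector library and 56.0 in the NFX1 library. Of 8 hepatocyte or hepatoma markers, 7 were at 1 FPKM or more in the vector library, and the defining liver gene ALB was at 0.776 and 1.06. None of 3 endothelial or 4 fibroblast markers reached 1 FPKM in either library, and PTPRC and CD3E were listed at 0. Of 5 leukocyte markers only LYZ was above 1, at 49.2 and 47.9. Low values of short intronless loci were whole multiples of a fixed step, which recovered fragment numbers. All 38 member values that could be checked, low values on loci of 400 bp or more, were within 0.1 of a whole fragment. Shorter member loci, all H4 genes, were left out, and some of their values were not whole, such as 13.6 and 15.6 for HIST1H4J. Fragment numbers of such loci are therefore rounded. The NFX1 library was 1.15 times as deep. The 95% intervals given for ratios are exact (Clopper-Pearson) and cover counting error only, not differences between cultures.

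Of the 68 genes, 40 were measured, meaning 1 FPKM or more in at least 1 library, and 26 of them were lower in the NFX1 library. Over all 11182 measured genes, 48% were lower and 52% higher. Change is log2 of the ratio of FPKM + 1, NFX1 over vector, a scale that understates differences of low genes. The members' median change was −0.16, against 0.01 over all measured genes. Among the 5385 genes between 1 and 10 FPKM, where many members lie, 60.9% were lower, with a median of −0.05, and 0.39% were 1.5-fold lower and 0.706% 1.5-fold higher. At 1.5-fold on this scale, 3 members were lower (0.215% of all genes) and 3 were higher (0.42%). At a change of 0.32 or more in size, 13 members were lower (2.3% of all genes) and 6 were higher (6.12%). The filter kept genes that were high in either library, so these counts describe the 40 and not all 68. In bulk RNA, fewer cells that express a histone gene and less RNA per cell cannot be told apart.

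**Figure D1:**
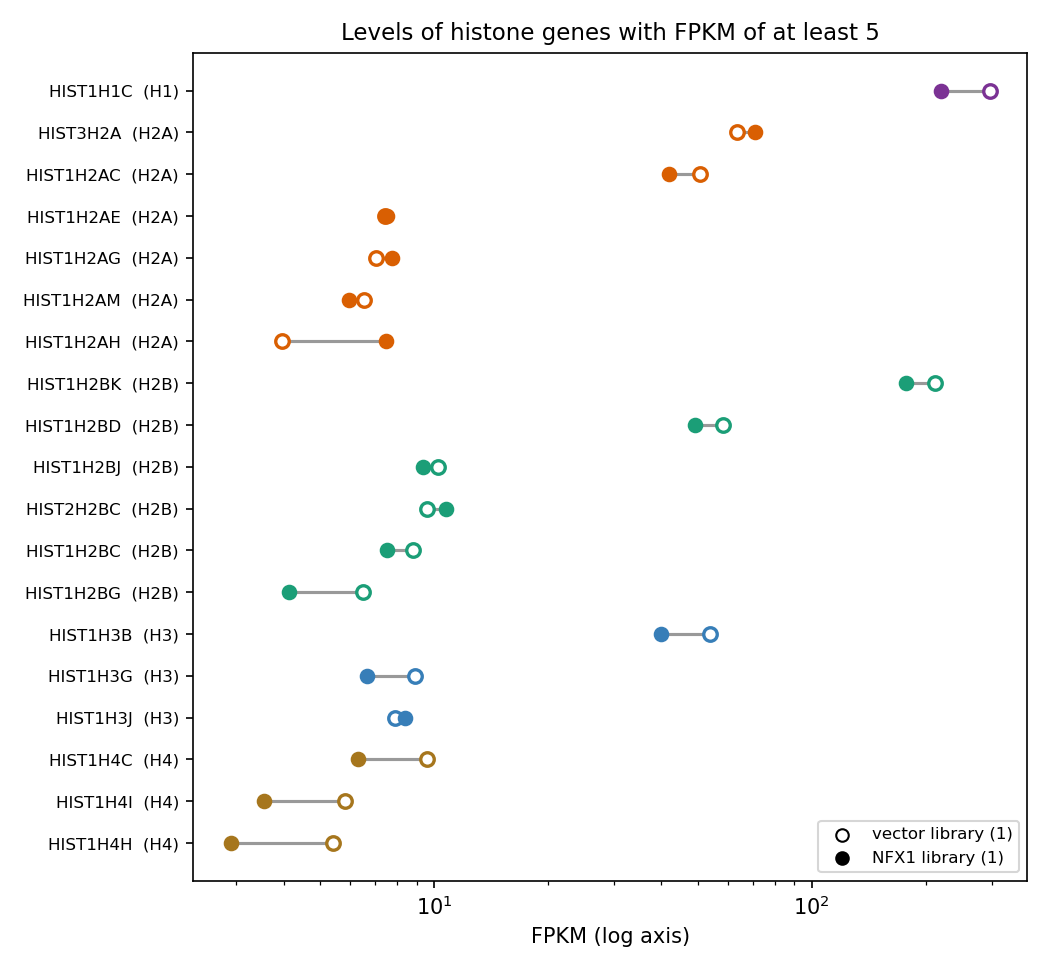
FPKM on a log axis in the vector library (open points) and the NFX1 library (filled points) for the 19 histone genes at 5 FPKM or more in at least 1 library, coloured by class. HIST1H1C lies highest in both libraries, at 296 and 219.8 FPKM, and 13 of the 19 genes lie lower in the NFX1 library.

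Nearly all linker histone RNA from the clusters was HIST1H1C, which was lower in the NFX1 library. HIST1H1C encodes the linker histone H1.2 (locus chr6:26055968-26056699 on hg19, minus strand). It was at 296 FPKM in the vector library and 219.8 in the NFX1 library, from 4954 and 4236 fragments. The ratio was 0.744 (0.714 to 0.776), the narrowest interval of any member. HIST1H1E was at 1.18 and 1.07 FPKM and HIST1H1B at 1.11 and 0.783 (22 and 23 fragments, and 21 and 17). Their intervals, 0.485 to 1.71 and 0.349 to 1.40, spanned 1. HIST1H1D stayed under 1 FPKM, at 0.109 and 0.189, and HIST1H1A was listed at 0. All 3 measured H1 genes were thus lower, with a median change of −0.24, but the counts separate the libraries for HIST1H1C only.

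H2A genes showed no common direction, with 4 of 10 lower and a median change of 0.07. The class was led by HIST3H2A, the H2A gene of the small HIST3 cluster, at 63.4 FPKM in the vector library and 70.7 in the NFX1 library, a ratio of 1.11 (0.977 to 1.28). Its symbol had another row on the same locus, at 25.5 and 28.8 FPKM, with the same direction. HIST1H2AC, one of the members with long transcripts, was lower, at 50.5 and 41.97 FPKM with a ratio of 0.831 (0.706 to 0.983). HIST1H2AH went the other way. It was at 3.95 FPKM in the vector library and 7.45 in the NFX1 library, from 30 and 65 fragments, a ratio of 1.88 (1.21 to 3.01). HIST1H2AE was at 7.44 and 7.54 FPKM. HIST1H2AG was at 7.03 and 7.76, and HIST1H2AM at 6.52 and 5.96. These last 3 had intervals that spanned 1, computed with the shortest H2A locus because their own loci are long or shared. The 4 other measured H2A genes had ratios from 0.718 to 1.74, each with an interval that spanned 1.

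H2B genes were led by HIST1H2BK, and 8 of 12 were lower, with a median change of −0.22. HIST1H2BK (locus chr6:27106072-27114637 on hg19) was at 212 FPKM in the vector library and 178 in the NFX1 library, a ratio of 0.838 (0.774 to 0.913). HIST1H2BD was at 58.3 and 49.2 FPKM, a ratio of 0.843 (0.722 to 0.992). HIST2H2BE, an intronless locus of 2223 bp, was at 4.57 and 3.44 FPKM, which its length turns into 326 and 282 fragments, and its ratio was 0.753 (0.640 to 0.886). All of these had intervals under 1 and lay within 0.1 of each other in ratio. The exception in the class was HIST1H2BL, which had 11 fragments in the vector library and 31 in the NFX1 library. Its level was 1.68 and 4.11 FPKM and its ratio 2.45 (1.201 to 5.41), the greatest change of any measured member (0.93). HIST1H2BJ was at 10.3 and 9.35 FPKM, HIST1H2BC at 8.81 and 7.52, and HIST1H2BG at 6.49 and 4.15, with intervals that spanned 1. HIST2H2BC, a pseudogene on a locus shared with HIST2H2AA3, was at 9.59 and 10.8 FPKM. The 4 remaining measured H2B genes had ratios from 0.621 to 1.599 and intervals that spanned 1.

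H3 genes were led by HIST1H3B, which carried 66.2% of the summed FPKM of the class in the vector library. It was at 53.9 FPKM there and 39.8 in the NFX1 library, a ratio of 0.738 (0.634 to 0.865). HIST1H3G was at 8.92 and 6.64 FPKM, with a ratio of 0.745 and an interval that just spanned 1 (0.499 to 1.09). HIST1H3J was at 7.89 and 8.38. The low members went both ways. HIST1H3E, whose annotated transcripts can run far past the stem-loop, was at 1.84 and 0.787 FPKM, and HIST1H3F at 3.54 and 1.98, while HIST1H3I was at 1.08 and 2.22 (8 and 19 fragments). These 3 passed 1.5-fold on the change scale, at −0.67, −0.61 and 0.63, yet each of their intervals spanned 1. For HIST1H3E, HIST1H3F and HIST1H3G that depends on the length used. Their fragments were computed with the shortest H3 locus, 457 bp, though their own loci span 1576 to 2511 bp. A longer transcript would give narrower intervals. Over the 8 measured H3 genes, 5 were lower and the median change was −0.38.

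Of the 7 measured H4 genes, 6 were lower, with a median change of −0.54. That median rests on the filter, since without it the H4 median was −0.095. HIST1H4C was at 9.57 FPKM in the vector library and 6.29 in the NFX1 library, from about 41 and 31 fragments, a ratio of 0.657 (0.399 to 1.08). HIST1H4H had the lowest change of all measured members (−0.71), at 5.41 and 2.91 FPKM with a ratio of 0.538 (0.221 to 1.28). HIST1H4I was at 5.82 and 3.56 FPKM, and HIST1H4K at 2.64 and 1.43, from about 8 and 5 fragments. HIST1H4D shows how coarse such values are. It had 4 fragments in each library, at 1.15 and 1.00 FPKM, and its ratio of 0.869 is the relative worth of 1 fragment in the deeper library. HIST4H4, alone on chromosome 12, was at 0.788 and 1.199 FPKM and was the only measured H4 gene that was higher. No H4 interval excluded 1. For HIST1H4H and HIST1H4I the intervals rest on the shortest H4 locus, 354 bp, against loci of 6965 and 8566 bp given to these genes. A longer transcript would give more fragments and narrower intervals, so for these genes depth alone did not set the result. The other measured H4 genes had at most about 41 fragments in a library, and no difference in them was detectable at this depth.

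**Figure D2:**
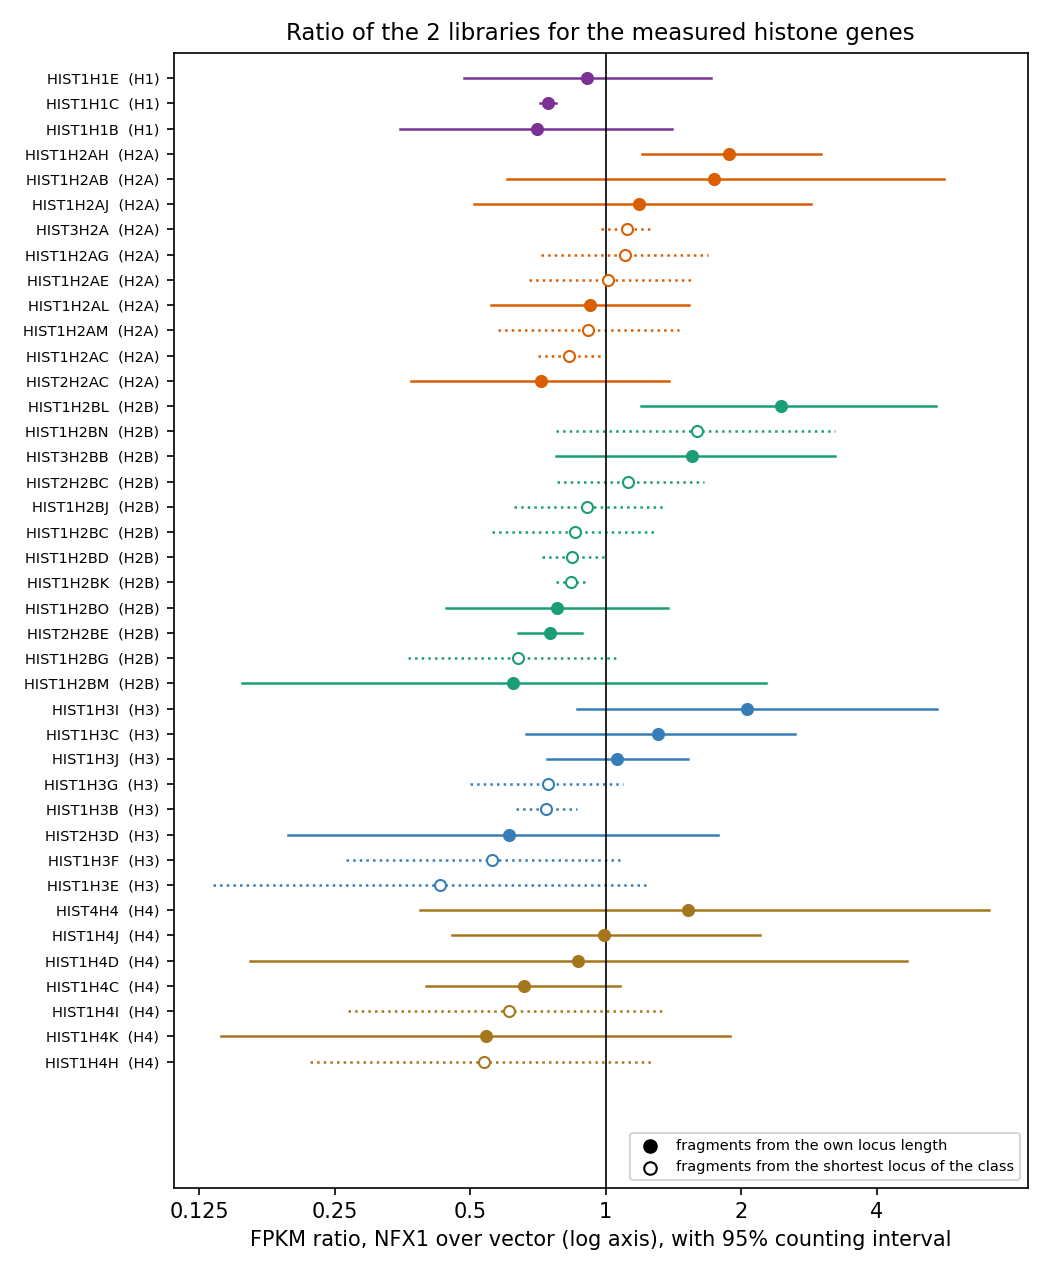
Ratio of FPKM, NFX1 over vector, on a log axis for the 40 measured histone genes, grouped by class, with 95% counting intervals as lines. Filled points use the length of the gene's own locus and open points with dotted lines the shortest locus of the class; 6 intervals lie under 1 and 2 lie over 1.

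Among the 40 measured members, counting intervals left 6 under a ratio of 1, namely HIST1H1C, HIST1H2AC, HIST1H2BD, HIST1H2BK, HIST2H2BE and HIST1H3B, and 2 above it, HIST1H2AH and HIST1H2BL. The 6 were among the members with the most fragments, each with at least 282 in both libraries. The other gene of such depth was HIST3H2A. The 2 above 1 had 95 and 42 fragments over both libraries. The 95% intervals were not adjusted for looking at 40 genes, and those of HIST1H2BD and HIST1H2AC ended close to 1, at 0.992 and 0.983. For genes on long or shared loci, fragments were computed with the shortest locus of their class, which gives fewer fragments and wider intervals than a longer transcript would. HIST2H2BE was the exception, since its locus has the length of its RefSeq gene. With the shortest H2B locus it would have 25 and 22 fragments and an interval of 0.412 to 1.42, so its place among the 6 rests on that length.

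Levels were also summed by class, over the 1 chosen row of each member. The sums leave out rows that joined several symbols and the other HIST3H2A row, and the values of near-identical copies are uncertain. H1 summed to 298 FPKM in the vector library and 222 in the NFX1 library, of which HIST1H1C made 99.2% in the vector library. H2B summed to 323 and 279, of which HIST1H2BK made 65.6%. H3 summed to 81.4 and 64.3, and H4 to 31.2 and 22.6. H2A stayed level, at 151 and 153, with HIST3H2A making 42.04%. Without HIST3H2A the H2A sum was 87.5 and 81.8 FPKM, a ratio of 0.936, so its direction rested on that gene. All members together summed to 885 and 741, a ratio of 0.837, and to 589 and 521 without HIST1H1C.

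**Figure D3:**
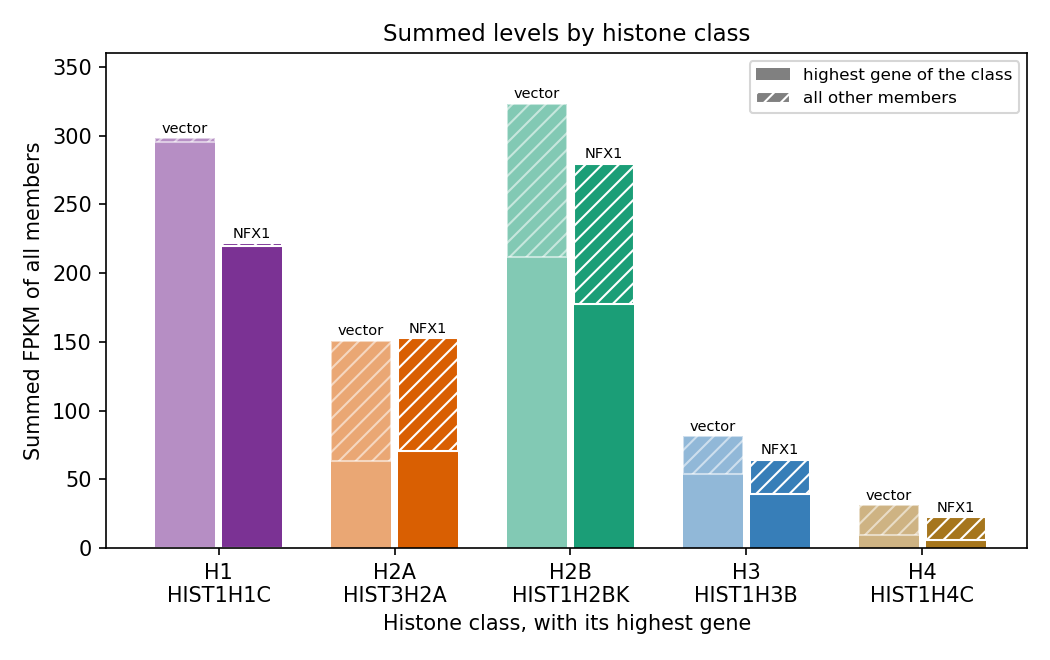
Summed FPKM of all members of each histone class in the vector library (pale bars) and the NFX1 library (full bars), with the highest gene of the class solid and the other members hatched. H1 went from 298 to 222 FPKM and H2A from 151 to 153.

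By cluster, 23 of 33 measured HIST1 genes were lower (median change −0.20), as were 3 of 4 HIST2 genes (−0.35). Both measured HIST3 genes were higher, HIST3H2A as above and HIST3H2BB at 2.14 and 3.33 FPKM, but both intervals spanned 1, and with a trend on GC content, length and expression subtracted HIST3H2A turned to −0.024. The HIST1 genes fall into 3 groups along chromosome 6 that are separated by more than 500000 bp. In the first group, from HIST1H3B to HIST1H4H, 13 of 16 measured genes were lower, with a median of −0.32. In the second, around HIST1H2BK, 3 of 5 were lower (−0.12), and in the third, from HIST1H2BL to HIST1H2BO, 7 of 12 (−0.05). The 3 members that were 1.5-fold lower lay in the first group, and those that were 1.5-fold higher in the other two groups. With that trend subtracted, the medians of the 3 groups were −0.26, −0.071 and −0.21. Class and locus length differ between the groups, and the part of each was not tested.

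**Figure D4:**
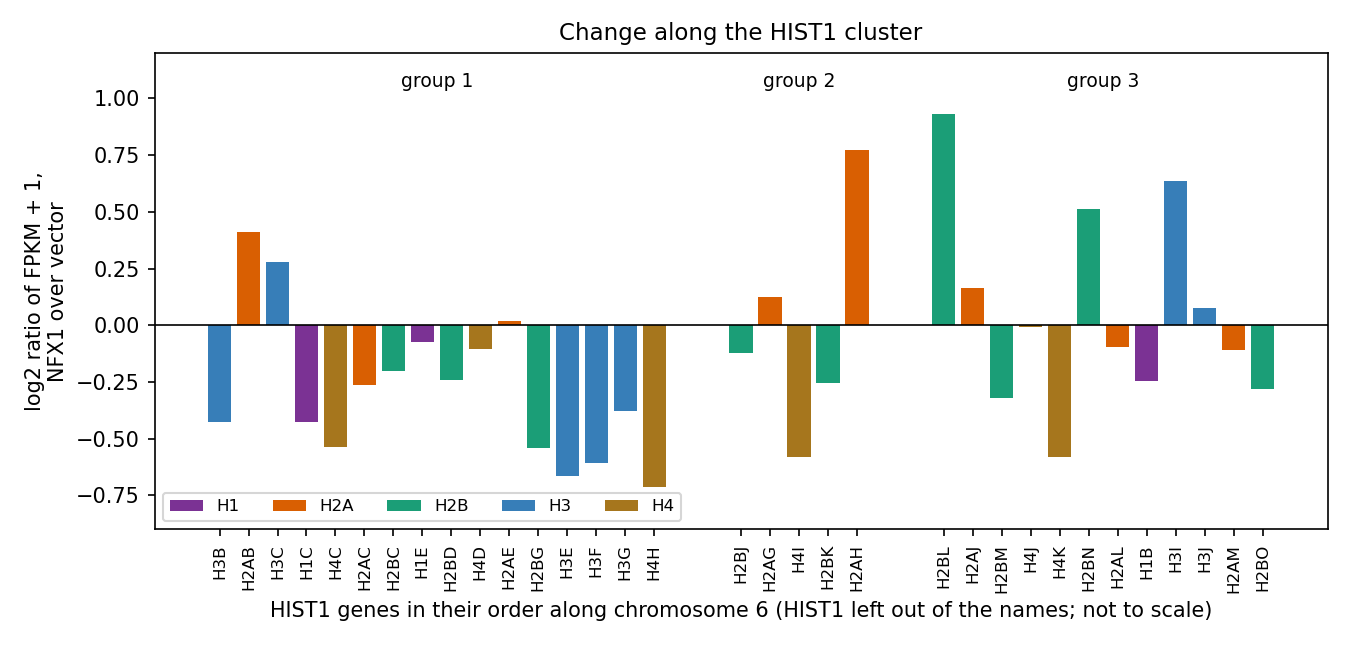
Change (log2 ratio of FPKM + 1, NFX1 over vector) of the 33 measured HIST1 genes in their order along chromosome 6, coloured by class, in 3 groups separated by over 500000 bp. In group 1, 13 of 16 bars lie below 0, and the tallest bars above 0, HIST1H2BL and HIST1H2AH, lie in groups 3 and 2.

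Members were also set apart by locus length. A locus of 1000 bp or more, much longer than the short gene body, was given to 18 measured genes, and 14 of these were lower (median −0.26). Of the 22 with shorter loci, 12 were lower (−0.04). With the trend subtracted the contrast was smaller, as 15 of 18 and 14 of 22 were lower and the medians were −0.26 and −0.18. For 13 of the 18 the RefSeq gene itself is under 1000 bp, so the table's locus extends beyond it. Only 7 of these 13 have that locus to themselves. The rest share it with another row, so its length there need not be that of an extended transcript. HIST1H3B, for example, had a locus of 3241 bp against a RefSeq gene of 511 bp. The contrast was clearest within H3, where the 4 genes with long loci were all lower (median −0.52) and 1 of 4 with short loci was lower (0.18). Among the 10 long loci that no other symbol shares, 9 were lower (−0.35), HIST1H2AG being the exception. Length goes with level and class here. Of the 19 members at 5 FPKM or more, 14 had long loci, and of these 11 were lower, against 2 of the 5 with short loci (4 of 5 with the trend subtracted). Other measured genes with a locus of their own under 1000 bp were mostly higher in the NFX1 library: 20.6% of 34 were lower, 0% were 1.5-fold lower and 11.8% were 1.5-fold higher, with a median of 0.29. Of the 22 members with shorter loci, 0 were 1.5-fold lower and 3 were 1.5-fold higher.

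**Figure D5:**
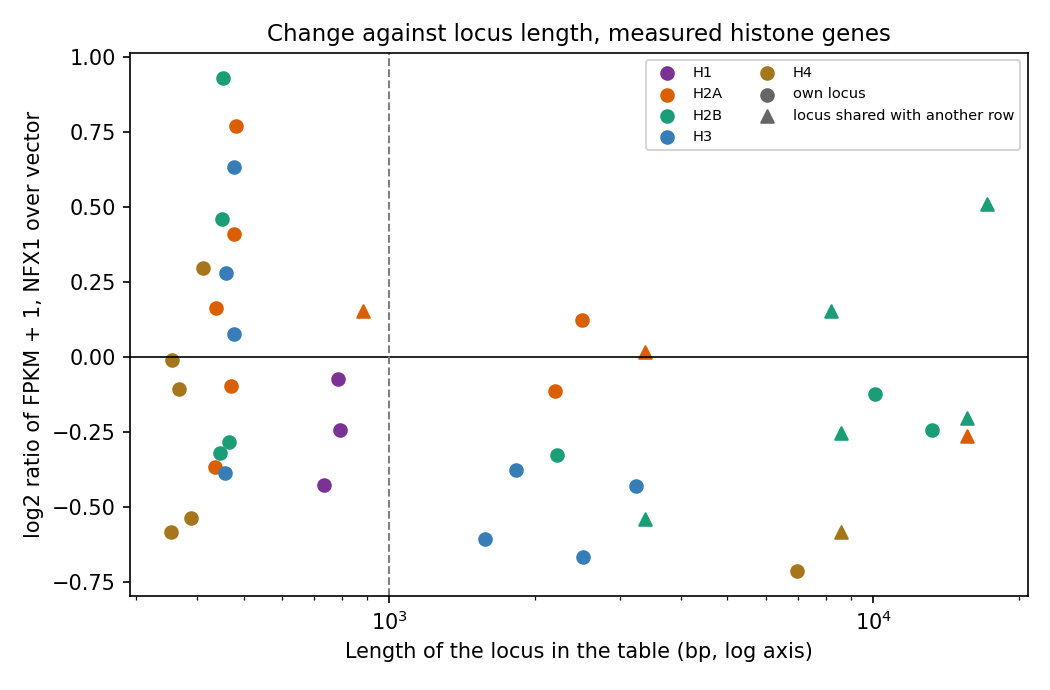
Change (log2 ratio of FPKM + 1, NFX1 over vector) against the length of the locus in the table (bp, log axis) for the 40 measured histone genes, coloured by class, with triangles for loci shared with another row and a dashed line at 1000 bp. Right of the line 14 of 18 genes lie below 0, and left of it 12 of 22.

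Pooled fragments gave a more precise view of the short loci, a summary chosen after the values were seen. The 44 members with a short locus of their own had 5343 fragments in the vector library and 4722 in the NFX1 library, a ratio of 0.770 (0.740 to 0.8004) that HIST1H1C decided. Without it the other 43 had 389 and 486 fragments, a ratio of 1.09 (0.9501 to 1.246). By class the pooled ratio was 1.22 (0.941 to 1.58) for H2A, 1.29 (0.937 to 1.79) for H2B, 1.14 (0.869 to 1.51) for H3 and 0.802 (0.571 to 1.12) for H4, whose fragment numbers are rounded. Of the 106 and 148 H2A fragments, HIST1H2AH held 30 and 65. Of the 66 and 98 H2B fragments, HIST1H2BL held 11 and 31. The pooled ratios of H2A and H2B, and that of the 43, thus lean on these genes. Pooled ratios were not corrected for the trend on GC content, length and expression, or for the shift of other short loci. Uncorrected, the short core histone loci together were not lower in the NFX1 library beyond counting error. H4 was the one class among them with a ratio under 1. The 34 other measured genes with short loci of their own had a median change of 0.29. The 22 measured short-locus members of all classes had −0.04, and −0.18 with the trend subtracted (14 lower). Whether the pooled loci were lower than other short loci was not tested. HIST1H1C was the one short locus with a ratio interval below 1.

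Many H2A and H2B genes are arranged as divergent pairs that share 1 upstream region. The members held 9 such pairs, with RefSeq starts 194 to 248 bp apart, and 7 pairs had both genes measured. Both partners were lower in 3 pairs, HIST1H2AC with HIST1H2BC, HIST1H2AM with HIST1H2BO, and HIST2H2AC with HIST2H2BE. Of these genes, only HIST1H2AC and HIST2H2BE had intervals under 1, and the others spanned it. HIST2H2AC was at 3.85 and 2.76 FPKM, with a ratio of 0.718 beside 0.753 for its partner. Both were higher in HIST3H2A with HIST3H2BB, with intervals that spanned 1. Partners had opposite signs in 3 pairs, HIST1H2AE with HIST1H2BG, HIST1H2AG with HIST1H2BJ, and HIST1H2AJ with HIST1H2BM, but all 6 intervals spanned 1. In the first pairs named, with HIST1H2AE and HIST1H2AG, the intervals rest on the shortest locus of the class. The difference between partners was not tested. Partners on 1 shared locus (HIST1H2AC with HIST1H2BC, and HIST1H2AE with HIST1H2BG) could exchange reads, since the counting is not stated to use strand. For the same reason HIST1H4I is uncertain, because it lies within the locus of the far higher HIST1H2BK.

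The upstream regions are shown for HIST1H1C, the member with the most fragments, and for the H2A genes of 2 pairs. HIST2H2AC is from a pair with both values lower and HIST3H2A from a pair with both higher, but the intervals of both genes spanned 1. Each is the 250 bases before the RefSeq start on GRCh38.p14, in the gene's own direction. Capitals mark exact matches on either strand to CCAAT (the CCAAT box), TATAAA (the TATA box), ATTTGCAT (the octamer bound by POU2F1) and AAACACA (the H1 box).
HIST1H1C, chr6:26056471-26056720, minus strand: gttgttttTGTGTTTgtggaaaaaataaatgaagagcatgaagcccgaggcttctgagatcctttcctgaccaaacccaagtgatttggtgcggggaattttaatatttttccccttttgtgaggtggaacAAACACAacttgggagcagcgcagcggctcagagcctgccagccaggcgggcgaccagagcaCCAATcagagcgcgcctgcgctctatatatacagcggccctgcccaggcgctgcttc
HIST2H2AC, chr1:149886668-149886917, plus strand: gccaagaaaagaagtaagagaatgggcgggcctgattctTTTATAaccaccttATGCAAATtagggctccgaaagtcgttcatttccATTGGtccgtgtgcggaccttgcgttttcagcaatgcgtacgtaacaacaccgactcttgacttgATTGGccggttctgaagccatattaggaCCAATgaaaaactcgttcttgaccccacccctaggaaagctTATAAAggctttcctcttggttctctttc
HIST3H2A, chr1:228457874-228458123, minus strand: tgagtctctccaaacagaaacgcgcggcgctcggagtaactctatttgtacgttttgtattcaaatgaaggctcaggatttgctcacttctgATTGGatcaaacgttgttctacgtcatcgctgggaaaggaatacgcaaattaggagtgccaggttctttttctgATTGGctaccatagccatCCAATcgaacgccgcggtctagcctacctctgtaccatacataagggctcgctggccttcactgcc
Searched over 300 bases, 250 before to 50 after the start, 60 members had a RefSeq promoter to compare with all 35116 promoters. CCAAT was in 50 of the 60 (83.3%) and in 34.6% of all promoters, and TATAAA in 40 (66.7%) and 11.5%. The octamer was in 10 of 14 H2A and 14 of 18 H2B promoters, in none of the H1, H3 and H4 promoters, and in 1.77% of all. AAACACA was in all 6 H1 promoters and in 5.64% of all. H4 promoters stood apart with CCAAT in 3 of 13, while all promoters of the other classes had it. Among the measured members, 15 with the octamer had a median change of −0.20, and 20 without it −0.24.

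Lists of genes that act on histone mRNA or go with S phase had medians smaller in size than the members' −0.16. Single genes of these lists changed by up to 0.36 (MCM7), more in size than some members, such as HIST1H2BK (−0.25). Of 16 listed genes for 3′ processing and decay at the stem-loop, 14 were measured, 8 lower and 6 higher, with a median of −0.03. SLBP was at 18.9 FPKM in the vector library and 18.7 in the NFX1 library. The U7 subunit LSM10 was at 84.0 and 99.6, its partner LSM11 at 0.884 and 0.848, and the exonuclease ERI1, which trims histone mRNA ends, at 1.01 and 0.712. CASP8AP2, a component of histone locus bodies, was at 0.892 and 0.864. The cleavage factor subunits CPSF1 and CPSF2 were at 29.2 and 35.2 and at 10.5 and 8.84, and the cap-binding NCBP2 at 25.2 and 21.9.

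For histone gene transcription, 5 of 10 genes were lower and the median was 0.00. NPAT, the coactivator of histone genes that cyclin E and CDK2 activate, was at 1.26 and 0.949 FPKM. The factors E2F1, YY1 and HINFP were at 25.9 and 32.2, at 22.9 and 19.7, and at 12.3 and 13.7, and cyclin E1 (CCNE1) at 14.9 and 15.7. Of 27 other S-phase genes, 15 were lower and the median was 0.00. With a trend on GC content, length and expression subtracted, 5 of the 27 were lower and the median was 0.03. The helicase subunits MCM7 and MCM2 were at 56.9 and 73.6 and at 43.5 and 54.7 FPKM, thymidine kinase TK1 at 103 and 129, and GINS2 at 27.99 and 34.2. These 4 were named for the size of their change. With the trend subtracted, the change of MCM2 went from 0.32 to 0.15, that of MCM7 from 0.36 to 0.21 and that of TK1 from 0.31 to 0.085.

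Of 15 histone chaperones and carriers, 6 were lower (median 0.01). ASF1B, which hands H3 and H4 to assembly factors, was at 33.5 and 43.8 FPKM, the importin IPO4 at 31.6 and 40.4, the assembly factor subunit CHAF1B at 22.6 and 27.6, and RBBP4 at 9.85 and 8.37. Replacement variants are histone genes outside the clusters, most with polyadenylated mRNAs made throughout the cell cycle. Of 12 listed, 11 were measured, 4 were lower and the median was 0.08. H1FX was at 150 and 184 FPKM, H2AFX at 142 and 171, H2AFJ at 36.4 and 43.2 and H2AFY2 at 5.78 and 6.92. H1F0, the replacement linker gene with a level above HIST1H1C, was at 436 and 418 FPKM, a change of −0.06. With the trend described below subtracted, the change of H1FX went from 0.29 to 0.01 and that of H1F0 to −0.18. No gene of these lists passed 1.5-fold in either direction. Of 8 RNAs without a poly(A) tail, 4 were in the table and 3 were measured. RMRP was at 30.2 and 38.1 FPKM, RPPH1 at 13.1 and 12.7 and SCARNA2 at 0.746 and 1.46. The part of library selection in the histone values was not tested.

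The members are richer in G and C than other measured genes, with a median of 57.4% against 50.6%, each gene taken at the median of its GENCODE transcripts. A smooth trend of the change on GC content, transcript length and expression was taken over 10620 genes. It was fitted on those within 2-fold on the change scale and held 40.2% of the variance of their changes. With that trend subtracted, 29 of 40 members were lower, against 49.6% of all genes, and their median was −0.23. The H2A median then became −0.044. In the authors' deposited table, 50 members were tested and none was marked significant (0.12% of the 14994 tested rows were). Its p-values, from a comparison of the 2 libraries and not of replicates, were under 0.05 for 2 members, HIST1H2BI (0.0122) and HIST1H3E (0.0390), and no member had a q-value under 0.999.

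The 28 members that were not measured were 3 H1, 6 H2A, 8 H2B, 3 H3 and 8 H4 genes, and 15 of them were listed at 0 in both libraries. HIST1H2BI had no fragment in the vector library and 6 in the NFX1 library (0.872 FPKM), which is 1.73 times the vector level at a floor of 3 fragments per library. Its counting interval, which also covers the error of the 6 fragments, starts at 1.025. HIST1H4B had 0 and 2 fragments, and HIST1H2BA, a testis histone, 1 and 0. The testis genes HIST1H1T, HIST1H2AA and HIST3H3 were listed at 0 in both libraries. At HIST1H1T that floor allows up to 0.182 FPKM in the vector library and 0.158 in the NFX1 library, and at HIST1H4L up to 0.911 and 0.789. The near-identical copies HIST2H2AA3, HIST2H2AA4, HIST2H3A, HIST2H4A and HIST2H4B were also listed at 0, and their values are uncertain because reads that fit several copies could be dropped or split. HIST2H3D, which is close to HIST2H3A, was at 1.49 and 0.907 FPKM. Rows that joined 2 symbols stayed out of the members: HIST1H2AI with HIST1H3H was at 14.4 and 14.8 FPKM, and HIST1H2AD with HIST1H3D at 19.4 and 14.0.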

How the data were processed

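The submitters' processing notes name hg19, Cufflinks 2.2.1 and TopHat2 2.1.0, with no role or order. Library type, annotation and settings are not given in the sources used here. FPKM values of both libraries were deposited by the authors in 1 table. The authors' log2 fold change, test statistic (a score), p-value and q-value stand beside them, per the file headers.

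Groups came from the genotype labels. For a repeated symbol the row with the highest mean FPKM was used. The members and gene lists were chosen with earlier results of these data known. Named members were those at 5 FPKM or more, those past 1.5-fold, testis genes and near-identical copies. From each list, up to 4 genes at 5 FPKM or more with the greatest change were named, besides 6 fixed genes. Fragment steps were fitted on 52 and 53 other intronless loci of 400 to 1500 bp, and 98.1% of their values in each library were whole within 0.1. A fragment of the deeper NFX1 library was thereby worth 0.871 of a vector fragment in FPKM. The scripts were tested on simulated data. RefSeq names, promoters and lengths matched 68 members by gene identifier (promoters for 60). Python 3.11.15 with pandas 2.3.3, scipy 1.17.1 and scikit-learn 1.9.0 was used. Locus starts were converted to count from 1.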

Additional observations from a re-analysis of the deposited data

How the results depend on the processing

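With 1 library per group, the spread between cultures is unknown, and the counting intervals of most measured members include a ratio of 1. No paired analysis was possible because each group has 1 library and the labels carry no replicate numbers. The median change of the members stayed below 0 in all 9 settings tried, from −0.24 to −0.08. Members 1.5-fold lower (3) and higher (3) numbered 9 and 6 with a pseudocount of 0.1 in place of 1 and 0 and 0 with 5, values set by the pseudocount itself. At other fold limits they numbered 13 and 6 (change of 0.32) and 0 and 0 (2-fold). Without a filter 5 were higher. Of the 19 members at 5 FPKM or more, 13 were lower in all, 1 of them and 1 of the higher ones by 1.5-fold. There the HIST2 median was 0.15 and the short-locus median 0.077, both reversed, with fewer genes. Centred on the median of all genes, 5 were 1.5-fold lower, and with the trend subtracted 6. The H2A median reversed to −0.039 without a filter and −0.044 with the trend subtracted. Ratios of summed FPKM without the highest member were 0.852 for H1, 0.936 for H2A (reversed) and 0.884 for all. Scaled by the summed FPKM of all genes they were 0.678 for H1, 0.920 for H2A (reversed), 0.786 for H2B and 0.762 for all. The change of NFX1 was 3.45, and 3.70 and 2.73 with pseudocounts of 0.1 and 5. The cause of these shifts was otherwise not tested. Without a filter the H4 median was −0.095 in place of −0.54, and the H1, H2B and H3 medians (−0.16, −0.21 and −0.38) were lower than it. With the shortest H2B locus for HIST2H2BE, an alternative chosen after seeing the data, 5 in place of 6 measured members had an interval below 1. In all, 130 values for counts, medians and sums and 50 for single genes were classed as unchanged. Counts had to stay within 1.5-fold, and the others had to keep their direction and move by less than a counting interval's half-width. The 130 include values listed above, among them the H4 median without a filter and the 5 members with an interval below 1.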
